A study of Homo sapiens with 21 samples.

Results

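The drug efflux transporters of the ABC family were followed through 10 pairs of parental and treatment-resistant cancer cell lines. The 9 genes, ABCB1, ABCC1, ABCC2, ABCC3, ABCC4, ABCC5, ABCC6, ABCC10 and ABCG2, were taken by symbol from the 53515 genes counted in each library, and all 9 were present. RNA sequencing covered 17 established cell lines in 21 libraries, in which reads were counted per gene. Each resistant line had been grown from its parent over months at stepwise higher doses of 1 drug. The pairs were selected for the lack of a known resistance mechanism, such as altered multidrug resistance genes, and for signs of an epithelial-mesenchymal transition. The comparisons below ask how the efflux genes themselves stood in each parent and in the resistant line grown from it.

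HepG2, a hepatocellular carcinoma line, was the parent of HepG2S1 and HepG2S3, both resistant to the kinase inhibitor sorafenib. Low-coverage genome sequencing in the paper found small copy number differences between parental and resistant lines, except in the HepG2 pairs. The part of copy number in the changes below was not tested. PancVB, the pancreatic adenocarcinoma line Panc 03.27, was the parent of PancB1Q and PancB1V, both resistant to 5-fluorouracil. The lung adenocarcinoma lines HCC4006P1, HCC4006P2 and HCC827P were the parents of the erlotinib-resistant HCC4006ER, the gefitinib-resistant HCC4006GR and the gefitinib-resistant HCC827GR. HCC4006P1 and HCC4006P2 are stocks of 1 cell line taken from separate earlier studies. The ovarian line UWB1.289 was the parent of U10 and U100, resistant to the PARP inhibitor olaparib. IGROV-1, also ovarian, gave rise to IGROV-1/CDDP, which is resistant to cisplatin. Whether a resistant line is a clone or a mixed population is not given in the sources used here. There were 2 libraries for each of 4 lines (HepG2, HepG2S3, HCC4006P1, HCC4006ER) and 1 for each of the other 13, so 8 of the 10 pairs have a line without a replicate. No label says that the libraries of 1 line came from separate cultures, and p-values then measure only the spread between these libraries.

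ABC transporters use ATP hydrolysis to carry substrates across membranes. ABCB1 (P-glycoprotein), the proteins of the ABCC group (multidrug resistance proteins) and ABCG2 (breast cancer resistance protein) export many anticancer drugs, toxins and metabolites, and high levels of them are a textbook cause of multidrug resistance in cultured cancer cells. In liver, ABCB1, ABCC2 and ABCG2 serve the bile-facing membrane of hepatocytes, while ABCC3 and ABCC4 export towards the blood.

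Of the 9 genes, 7 had an entry among the RefSeq promoters of GRCh38.p14, with 14 start sites in all. ABCB1, ABCC2 and ABCC6 are shown, because their transcripts ranged most widely between the cell lines. Each sequence holds the 250 bases before a start site, 5′ to 3′ on the gene's strand. Capitals mark a match, on either strand, to the CCAAT box (CCAAT), to the GC box (GGGCGG), to an E-box bound by SNAI and ZEB factors (CAGGTG) or to the core of the antioxidant response element (TGACNNNGC). A run without capitals holds none of them.
ABCB1, downstream start, chr7:87600885-87601134, minus strand: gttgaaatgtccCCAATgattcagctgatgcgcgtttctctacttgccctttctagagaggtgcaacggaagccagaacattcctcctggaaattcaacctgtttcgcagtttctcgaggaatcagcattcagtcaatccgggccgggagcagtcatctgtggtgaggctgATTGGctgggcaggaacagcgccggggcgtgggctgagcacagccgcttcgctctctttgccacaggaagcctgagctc
ABCB1, upstream start, chr7:87713296-87713545, minus strand: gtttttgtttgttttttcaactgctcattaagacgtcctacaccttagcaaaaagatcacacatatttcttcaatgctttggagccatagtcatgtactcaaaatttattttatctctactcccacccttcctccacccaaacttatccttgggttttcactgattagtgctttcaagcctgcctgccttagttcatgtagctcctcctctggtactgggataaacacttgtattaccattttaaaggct
ABCC2, chr10:99782390-99782639, plus strand: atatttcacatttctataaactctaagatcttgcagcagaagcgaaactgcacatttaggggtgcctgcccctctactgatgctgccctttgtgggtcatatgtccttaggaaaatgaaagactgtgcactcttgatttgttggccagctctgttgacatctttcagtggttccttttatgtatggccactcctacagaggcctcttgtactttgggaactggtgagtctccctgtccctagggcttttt
ABCC6, chr16:16223472-16223721, minus strand: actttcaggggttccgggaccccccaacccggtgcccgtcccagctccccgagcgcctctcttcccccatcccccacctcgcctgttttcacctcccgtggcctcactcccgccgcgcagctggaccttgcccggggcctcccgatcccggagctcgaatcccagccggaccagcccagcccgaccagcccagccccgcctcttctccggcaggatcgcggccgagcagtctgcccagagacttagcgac
The 2 ABCB1 starts lie 112411 bases apart. The downstream one held 2 CCAAT matches, one on each strand, and 12 CpG dinucleotides, and the upstream one held no match and 1 CpG. The CCAAT box was present in 32% of the 35116 promoter windows of this length, the GC box in 42.6%, the E-box in 17.5% and the antioxidant core in 10.9%, and the median window held 11 CpG. The ABCC2 window held 1 CpG and that of ABCC6 22, neither with a match to a searched motif. Counts per gene do not separate transcripts of the 2 ABCB1 starts.

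Libraries held between 9851195 and 36639473 counts on genes, so 3 counts, taken as the smallest detected number, stood for 0.0819 to 0.305 CPM (the count of a gene scaled to a library total of 1000000). One library, HCC4006P1 replicate 1, is almost empty (0.000102% of its counts) over a stretch that begins at GARS1 on chromosome 7 (30620149 in GRCh37) and takes in ABCB1, for which it has 0 counts. That stretch held 18.1% of the counts in replicate 2. ABCB1 in HCC4006P1 is therefore given from replicate 2 alone, and the CPM of the other 8 genes in replicate 1 are raised by the missing counts. The cell types were checked with their markers. All 5 liver markers (ALB, APOA1, TTR, AFP, HNF4A) exceeded 1 CPM in HepG2. The lung markers NKX2-1, NAPSA, SFTPB and SFTA3 summed to between 0.45 and 296 CPM in the 3 lung parents. The lowest sum was that of HCC4006P1, so HCC4006P1 and HCC4006P2 differed in these markers. In the 3 pancreatic lines KRT7, KRT19 and MUC1 exceeded 1 CPM and PDX1 did not. KRT7, KRT19 and MUC1 reached 1 CPM in lung and ovarian parents too. The 4 pancreas markers summed to up to 4119 CPM in lung parents against 3224 CPM in PancVB. They do not single out pancreas. In the 5 ovarian lines PAX8 lay between 357 and 664 CPM, MUC16 exceeded 1 CPM in UWB1.289, U10 and U100 only, and WT1 and EMX2 stayed under 1 CPM. The 4 ovary markers summed to up to 642 CPM in lung parents against 461 to 665 CPM in ovarian parents. They do not single out ovary either.

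ABCC1 and ABCC10 were the most evenly expressed of the 9 genes, and ABCB1, ABCC2, ABCC6 and ABCG2 the least. ABCC1 reached between 65.4 CPM (PancB1V) and 251 CPM (HepG2), a 3.84-fold range over the 17 lines, and ABCC10 between 16.1 CPM (HCC827P) and 53.8 CPM (HepG2), a 3.34-fold range. ABCC4 ranged 10.3-fold and ABCC5 10.8-fold, with all 17 lines above 10 CPM for each. ABCC3 ranged 141-fold, from 2.25 CPM in IGROV-1/CDDP to 317 CPM in HCC827GR. For the remaining genes most lines were low and a few were high. ABCB1 was under 1 CPM in 8 lines and at 10 CPM or more in 4, ABCC6 was under 1 CPM in 10 lines and ABCG2 in 5. Neighbours in the order of lines often lay closer together than the replicate libraries of one line. For ABCG2, 15 of the 16 neighbouring lines differed by less than the 4.33-fold gap between the replicate libraries of HepG2, and for ABCC1, 7 of 16 differed by less than the 1.06-fold gap of HepG2. A wider ABCC1 gap in HCC4006P1 may be hidden, because the CPM of its replicate 1 are raised.

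**Figure D1:**
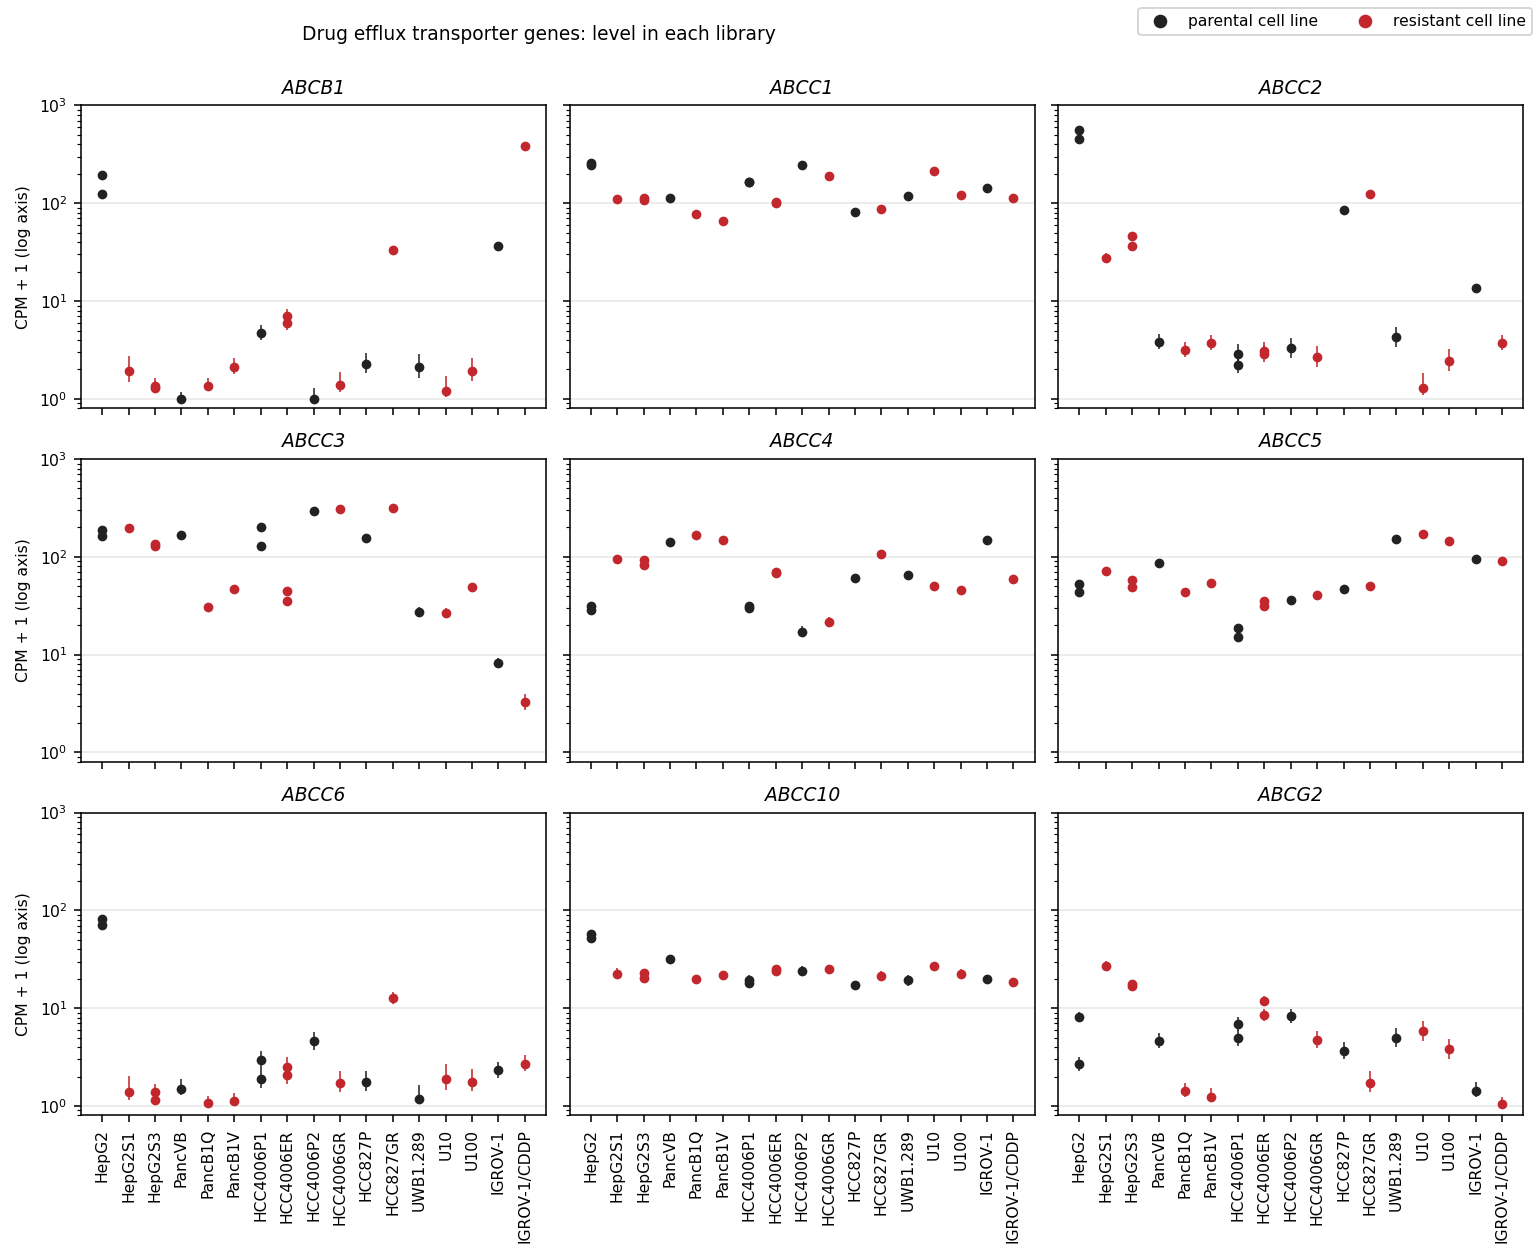
Level of each gene in every library. The vertical axis is CPM + 1 on a log axis, points are libraries (black, parental; red, resistant) and bars are 95% Wilson intervals of counting error; HCC4006P1 replicate 1 is left out for ABCB1. ABCC1 and ABCC10 span 3.84-fold and 3.34-fold across the 17 lines, while ABCB1 stands at 382 CPM in IGROV-1/CDDP and at 0 in PancVB.

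Levels of different genes were compared only per kb of exon sequence. The methods name both a whole-transcript kit and a 3′ end kit for the study without saying which library had which, so this scale is approximate. By CPM per kb, ABCC3 led in 7 of the 17 lines, ABCC1 in 5, ABCC4 in 3, and ABCB1 and ABCC2 in 1 each. HepG2 had the largest sum over the 9 genes, 162 CPM per kb, led by ABCC2 at 64.5. In its descendants the sum was 61 (HepG2S1) and 51.6 (HepG2S3), led by ABCC3. IGROV-1/CDDP had a sum of 89.9 against 52.1 CPM per kb in IGROV-1, and ABCB1 alone made up 59.5 of it. HCC827GR had 84.7 against 49.6 CPM per kb in HCC827P, and the sums fell short of the parent's in PancB1Q (37.6) and PancB1V (36.9) against 58.6 CPM per kb in PancVB.

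**Figure D2:**
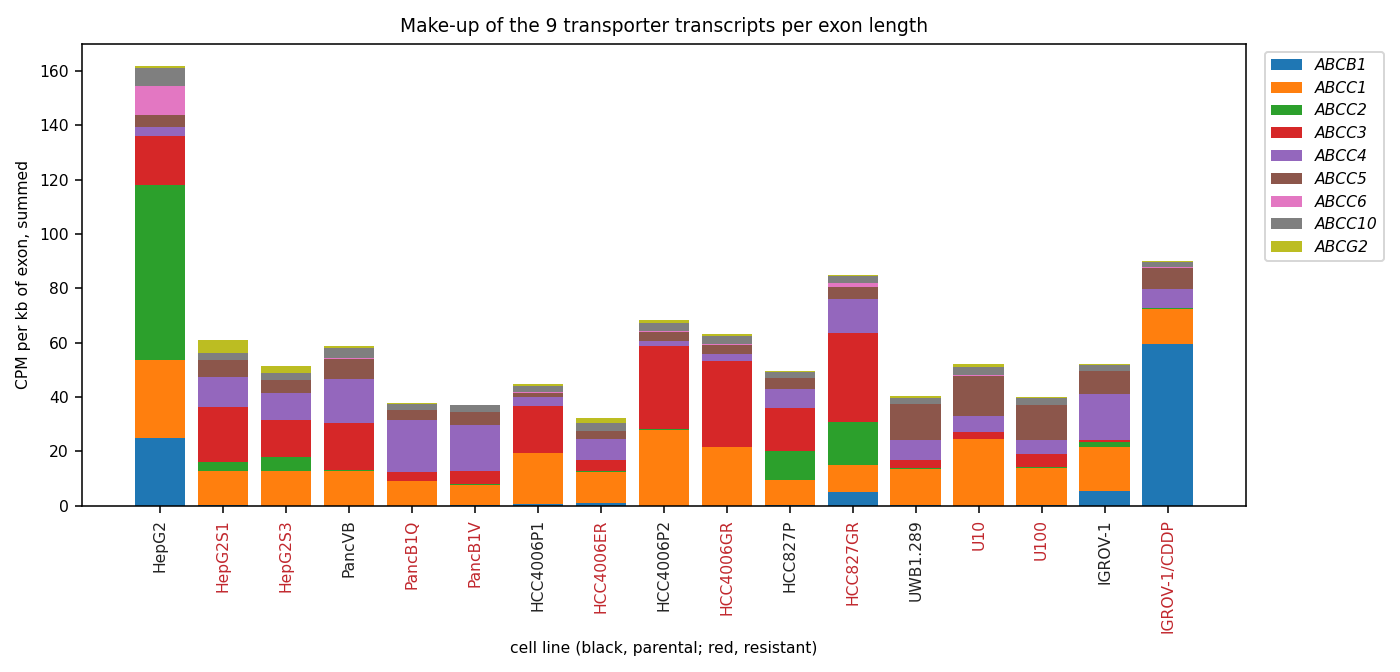
Make-up of the 9 transporter transcripts in each cell line. The vertical axis is CPM per kb of exon, stacked over the genes and averaged over replicate libraries, with parental names in black and resistant names in red. HepG2 reaches 162 CPM per kb, mainly through ABCC2, and ABCB1 fills most of the IGROV-1/CDDP bar.

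Changes between each resistant line and its parent were taken on log2(CPM + 1), a scale that understates the change of low genes, and 1 on this scale was called 2-fold. Of the 90 gene and pair combinations, 10 were at least 2-fold higher in the resistant line and 21 at least 2-fold lower. Lines of 1 parent share its libraries, so the combinations are not independent. HepG2S1 and HepG2S3 each gave 2 of the higher and 5 of the lower, in the same genes. Over all 15401 genes with a mean of at least 1 CPM, 10.4% of combinations were 2-fold higher and 8.15% 2-fold lower. Each of the 9 genes moved at least 2-fold in some pair except ABCC5, which fell just short with -0.99 in PancB1Q and 0.99 in HCC4006ER. That exception rests on the scale: the CPM ratios of ABCC5 were 2.01-fold lower and 2.05-fold higher, and with HCC4006P1 replicate 2 alone as the parent the HCC4006ER change was 1.15. In the HepG2 pairs the median gene itself rose by 0.19 (HepG2S1) and 0.20 (HepG2S3) on this scale, so small changes there depend on the scaling.

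Pair by pair, the members were read against the share of all 15401 genes past 2-fold. HepG2S1 had 2 members higher (ABCC4, ABCG2) and 5 lower (ABCB1, ABCC1, ABCC2, ABCC6, ABCC10), where 23.2% of all genes were higher and 15.3% lower. HepG2S3 had the same 2 and 5, where 24.6% were higher and 14.4% lower. Both pancreatic lines had ABCC3 and ABCG2 lower, and PancB1V alone had ABCB1 past 2-fold higher. The shares of all genes were 5.43% higher and 8.17% lower in PancB1Q, and 7.74% and 6.52% in PancB1V. The lung pairs differed from one another. HCC4006ER had ABCC4 higher and ABCC3 lower (10.2% and 10.8% of all genes), and HCC4006GR had only ABCC6 lower (7.12% higher and 6.7% lower among all genes). HCC827GR had ABCB1, ABCC3 and ABCC6 higher and ABCG2 lower, against 9.03% and 6.86% of all genes. In the ovarian lines, U10 had ABCC2 lower (5.66% higher and 4.63% lower among all genes), and U100 had no member past 2-fold (7.4% of all genes, 5.75% higher and 1.65% lower). IGROV-1/CDDP had ABCB1 higher and ABCC2, ABCC3 and ABCC4 lower, where 4.78% of all genes were higher and 6.35% lower.

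**Figure D3:**
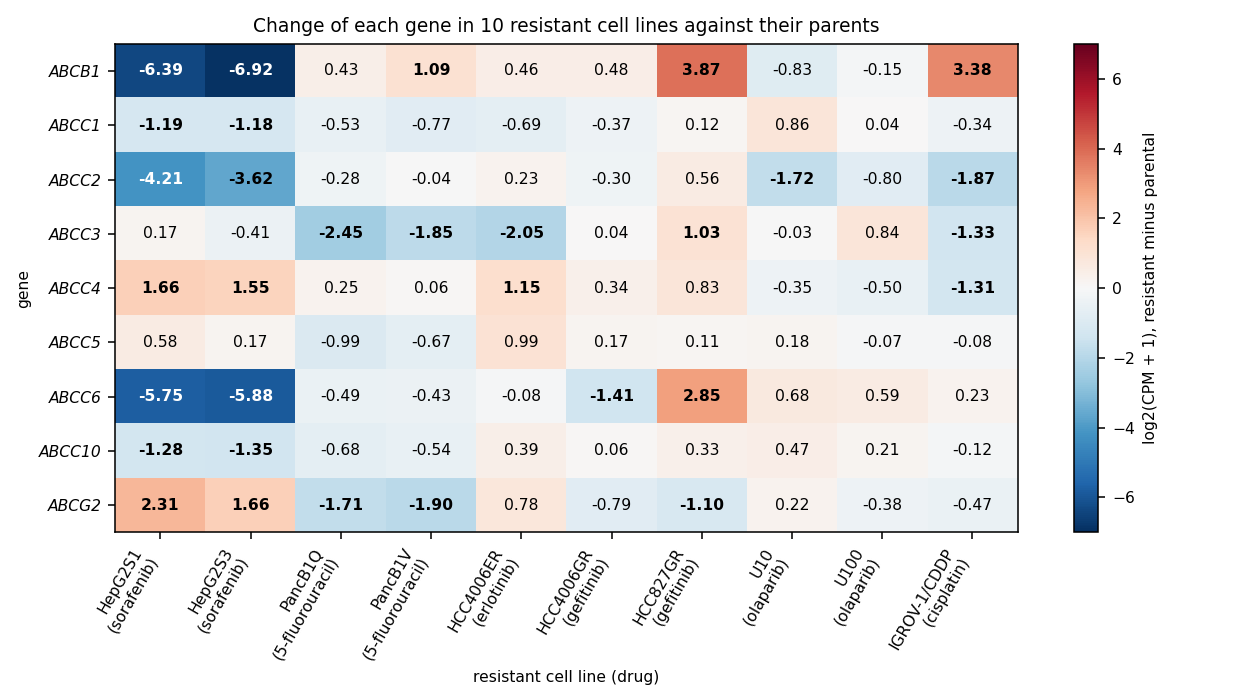
Change of each gene in each resistant line. Cells give log2(CPM + 1) in the resistant line minus that in its parent, coloured from blue (lower) to red (higher), with bold print at 2-fold or more. ABCB1 runs from -6.92 in HepG2S3 to 3.87 in HCC827GR, and U100 has no change of 2-fold.

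ABCB1 (ENSG00000085563), which encodes the broad-specificity pump P-glycoprotein, lies on chromosome 7 of GRCh37 from 87132333 to 87342639 on the minus strand. It fell to near the limit of detection in both sorafenib-resistant lines and rose in HCC827GR and IGROV-1/CDDP. The 2 HepG2 libraries held 124 and 195 CPM, HepG2S1 held 0.914 CPM, and the 2 HepG2S3 libraries held 0.281 and 0.359 CPM. Parental and resistant libraries were far apart. The level was 174-fold lower in HepG2S1 (counting interval 91.4 to 379) and 498-fold lower in HepG2S3 (321 to 813). The edgeR quasi-likelihood test gave log2 fold changes of -7.79 ± 0.50 (SE, adjusted p = 2.5e-04) and -9.26 ± 0.37 (adjusted p = 5.3e-05). RNA came from whole cultures, so less transcript per cell and fewer cells with the transcript cannot be told apart.

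In the gefitinib-resistant HCC827GR, ABCB1 reached 32.1 CPM (499 counts) against 1.27 CPM (22 counts) in HCC827P, 25.3-fold higher with a counting interval of 16.5 to 40.7. In the cisplatin-resistant IGROV-1/CDDP it reached 382 CPM (9659 counts) against 35.8 CPM (985 counts) in IGROV-1, 10.7-fold higher with an interval of 9.98 to 11.4. IGROV-1/CDDP had the highest ABCB1 level of the 17 lines and HepG2 came next. These lines and their parents have 1 library each, so neither rise has a replicate check. PancVB had 0 counts, which allows up to 0.138 CPM, against 1.13 CPM (28 counts) in PancB1V, 8.16-fold above that limit, and 0.35 CPM (10 counts) in PancB1Q, 2.54-fold above it. With the counting error of both libraries the ratios were at least 6.21 and 1.7. HCC4006P2 had 0 counts too, which allows up to 0.22 CPM, against 0.397 CPM (6 counts) in HCC4006GR, a ratio of at least 1.06 by the same interval. All of these levels lay far below that of HCC827GR. In HCC4006ER the libraries held 5.01 and 6.06 CPM against 3.74 CPM in HCC4006P1 replicate 2, and the edgeR test without replicate 1 gave 0.38 ± 0.24 (adjusted p = 0.155), in a fit that called 61.9% of all genes and whose single parental library is assumed to vary like those of HCC4006ER. U10 had 2 counts against 13 in UWB1.289, a ratio of 0.174 (interval 0.0191 to 0.77), and U100 had 12.

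Most genes around ABCB1 did not rise with it. RUNDC3B overlaps it on the opposite strand (87256864 to 87461611), and the nearest protein-coding genes that do not overlap it are ABCB4, a phospholipid transporter of the bile-facing membrane, and SLC25A40, a mitochondrial carrier. In IGROV-1/CDDP, ABCB4 was at 0.119 CPM (3 counts) against 0.0364 (1 count), too few to read a change. SLC25A40 was at 53.1 against 54.6 CPM there. In HCC827GR, ABCB4 was at 0.257 CPM (4 counts) against 0.0577 (1 count), again too few, and SLC25A40 at 35.5 against 34 CPM. Of the 10 protein-coding genes within 500 kb, 1 rose and 1 fell at least 2-fold in each of these lines. Among all genes 4.78% were higher and 6.35% lower in IGROV-1/CDDP, and 9.03% and 6.86% in HCC827GR. The gene that rose was RUNDC3B both times. RUNDC3B held 24.5 CPM in IGROV-1/CDDP against 2.62 CPM, and 4.7 CPM in HCC827GR against 0.288 CPM. In HepG2 it held 0.928 and 1.98 CPM, against 0 in HepG2S1 and 0.0312 and 0.0653 CPM in HepG2S3. The library kit marks strand, but the strand setting of the counting is not given in the sources used here, so reads from the overlap cannot be assigned to either gene with certainty.

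In HepG2S3 the region moved in both directions. ABCB4 went from 23.8 to 0.0312 CPM along with ABCB1. Of the 10 neighbours, 3 fell at least 2-fold, ABCB4 among them, and 6 rose at least 2-fold. Among all genes 14.4% were lower and 24.6% higher in HepG2S3. SRI (sorcin, a calcium-binding protein) had the most marked rise of the neighbours, from 0.192 CPM in HepG2 to 165 CPM in HepG2S3. It was named after its values were seen.

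**Figure D4:**
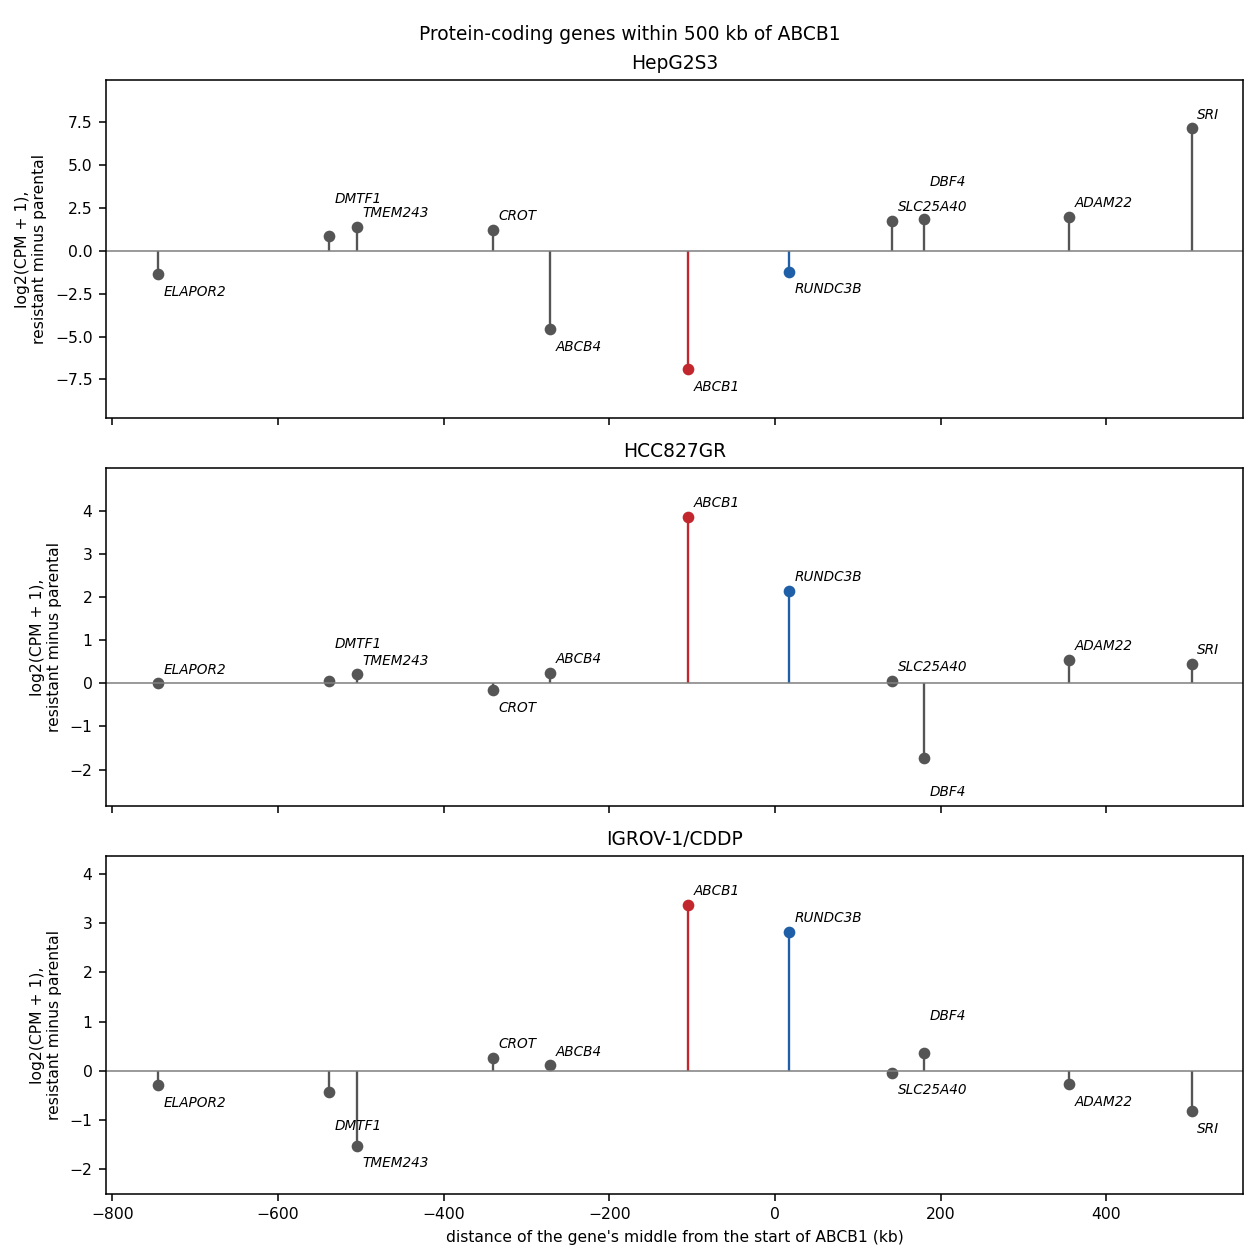
Protein-coding genes within 500 kb of ABCB1 in HepG2S3, HCC827GR and IGROV-1/CDDP. The horizontal axis is the distance of each gene's middle from the ABCB1 start in kb, and the vertical axis is log2(CPM + 1) in the resistant line minus that in its parent. RUNDC3B (blue) moves with ABCB1 (red) in all 3 panels, and SRI at the right edge rises by 7.12 in HepG2S3.

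ABCG2 (ENSG00000118777, chromosome 4 from 89011302 to 89152780, minus strand), a half-transporter that works as a dimer, had the widest gap between replicate libraries of the 9 genes. The HepG2 libraries held 7.21 and 1.66 CPM, HepG2S1 held 25.9 CPM, and the HepG2S3 libraries held 15.7 and 16.5 CPM. All 3 resistant libraries lay above both parental ones. The edgeR test gave 2.19 ± 0.72 for HepG2S1 (adjusted p = 0.0539) and 1.54 ± 0.64 for HepG2S3 (adjusted p = 0.0847), neither under 0.05. With DESeq2 both were under it (adjusted p = 0.0111 and 0.0201). Leaving out HepG2 replicate 1 gave an edgeR change of 2.96 in HepG2S3, and leaving out replicate 2 gave 0.83. Each of these fits kept 1 HepG2 library and lost the spread between the parental libraries, so neither decides the call. In the pancreatic pairs ABCG2 went the other way, from 3.64 CPM (79 counts) in PancVB to 0.42 CPM (12 counts) in PancB1Q and 0.242 CPM (6 counts) in PancB1V. That is 8.66-fold and 15.1-fold lower. HCC827GR held 0.707 CPM (11 counts) against 2.65 CPM (46 counts), 3.75-fold lower, in the line in which ABCB1 was higher. HCC4006ER held 7.59 and 10.8 CPM against 3.95 and 5.9 CPM in HCC4006P1, libraries that did not overlap, with an edgeR change of 0.91 ± 0.35 (adjusted p = 0.0685). That call depended on the fit: it was made with the replicate block (0.94, edgeR adjusted p = 6.94e-05), with DESeq2 (adjusted p = 0.0499) and without the filter (edgeR adjusted p = 0.0174). IGROV-1/CDDP had 1 count against 12, 11-fold lower with an interval of 1.63 to 472.

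ABCC1 (ENSG00000103222, chromosome 16 from 16042995 to 16237114), which exports glutathione conjugates such as leukotriene C4, fell in the replicated pairs. HepG2 held 244 and 258 CPM, HepG2S1 109.7 CPM, and HepG2S3 113 and 107 CPM. The resistant libraries lay well under the parental ones, and edgeR gave -1.54 ± 0.17 (adjusted p = 0.00135) and -1.51 ± 0.12 (adjusted p = 4.0e-04). HCC4006P1 held 164 CPM, raised by the missing counts of replicate 1, and 165 CPM. HCC4006ER held 99.8 and 103 CPM, and the edgeR change was -0.67 ± 0.16 (adjusted p = 0.0127). This last call was lost without either HCC4006ER library (adjusted p = 0.0862 and 0.0529). U10 had more ABCC1 than its parent, 213 against 117 CPM (1.83-fold, interval 1.71 to 1.96), and U100 had 120.2 CPM. ABCC10 (ENSG00000124574, chromosome 6 from 43395104 to 43418165), a broad exporter also called MRP7, held 51.7 and 55.8 CPM in HepG2, 21.6 CPM in HepG2S1 and 19.2 and 21.8 CPM in HepG2S3. It fell by 1.66 ± 0.20 (edgeR adjusted p = 0.00196) and by 1.71 ± 0.15 (adjusted p = 4.6e-04) on the log2 scale. After these falls its level was close to the median of the 17 lines, 20.7 CPM. DLK2, which meets the end of ABCC10 on the opposite strand, moved the other way, from 2.18 and 2.35 CPM in HepG2 to 10.4 and 11.1 CPM in HepG2S3.

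ABCC2 (ENSG00000023839, chromosome 10 from 101542397 to 101612351), which carries bilirubin glucuronide and other conjugates into bile, was the most abundant member in HepG2 and fell in both its descendants. HepG2 held 559 and 452 CPM, HepG2S1 26.4 CPM, and HepG2S3 44.8 and 35.4 CPM. The resistant groups did not overlap with HepG2. The level was 19.2-fold lower in HepG2S1 and 12.6-fold lower in HepG2S3, with edgeR changes of -4.61 ± 0.30 (adjusted p = 2.5e-04) and -3.97 ± 0.21 (adjusted p = 1.1e-04). ABCC2 was also lower in IGROV-1/CDDP, 2.77 against 12.7 CPM (4.6-fold, interval 3.55 to 6.03), and in U10, 3 against 38 counts (11.2-fold, interval 3.55 to 56.6). HCC827P, at 83.7 CPM, was the only parent besides HepG2 above 20 CPM, and HCC827GR held 124 CPM.

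ABCC6 (ENSG00000091262, chromosome 16 from 16243422 to 16317379, minus strand) is a liver-enriched transporter whose loss causes pseudoxanthoma elasticum, a mineralization disease of connective tissue. It moved in the same direction as ABCB1 in the HepG2 and HCC827 pairs. HepG2 held 80.1 and 69.2 CPM, HepG2S1 0.406 CPM, and HepG2S3 0.406 and 0.163 CPM. The edgeR changes were -7.86 ± 0.54 (adjusted p = 3.0e-04) and -8.32 ± 0.36 (adjusted p = 6.7e-05). HCC827GR held 11.6 CPM (181 counts) against 0.75 CPM (13 counts), 15.5-fold higher with an interval of 8.85 to 29.7. HCC4006GR held 11 counts against 49 in HCC4006P2, 4.95-fold lower. Parts of ABCC6 are copied in pseudogenes, so some of its reads are uncertain. The copy ABCC6P2 held 2.24 and 1.69 CPM in HepG2, at most 0.203 CPM in HepG2S1 and HepG2S3, and 0.707 CPM in HCC827GR against 0 in HCC827P.

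ABCC3 (ENSG00000108846, chromosome 17 from 48712138 to 48769614), a basolateral exporter of glucuronides and bile acids, changed in opposite directions between pairs. PancVB held 166 CPM, PancB1Q 29.5 CPM (5.62-fold lower) and PancB1V 45.4 CPM (3.65-fold lower). HCC4006P1 held 201 and 127 CPM and HCC4006ER 43.5 and 34.6 CPM. ABCC3 thus fell clearly in HCC4006ER, with an edgeR change of -2.0 ± 0.17 (adjusted p = 2.0e-04). In HCC4006GR, from another stock of the same cell line under the other EGFR inhibitor, it held 304 CPM against 295 in HCC4006P2 (ratio 1.03, interval 0.985 to 1.07). HCC827GR held 317 against 155 CPM (2.05-fold, interval 1.95 to 2.15), and IGROV-1/CDDP 2.25 against 7.17 CPM (3.18-fold lower). In HepG2S3 the 134 and 127 CPM lay under the 162 and 186 CPM of HepG2 (edgeR -0.73 ± 0.13, adjusted p = 0.00587), a call that was lost without either HepG2S3 library (adjusted p = 0.0657 and 0.0949). HepG2S1 held 196 CPM, above HepG2 by CPM and below it by the edgeR scaling (-0.18 ± 0.17, adjusted p = 0.417).

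ABCC4 (ENSG00000125257, chromosome 13 from 95672089 to 95953729, minus strand) exports cyclic nucleotides and nucleotide analogues, and it rose in HepG2S1, HepG2S3 and HCC4006ER. HepG2 held 27.8 and 30.7 CPM, HepG2S1 94.8 CPM, and HepG2S3 82.4 and 92.3 CPM. HCC4006P1 held 30.8 and 29.1 CPM and HCC4006ER 68.2 and 67.2 CPM. In both families every resistant library lay above every parental one. The edgeR changes were 1.35 ± 0.17 in HepG2S1 (adjusted p = 0.00225), 1.26 ± 0.14 in HepG2S3 (adjusted p = 0.00101) and 1.22 ± 0.14 in HCC4006ER (adjusted p = 7.9e-04). IGROV-1/CDDP went the other way, 58.4 against 147 CPM (2.51-fold lower, interval 2.37 to 2.67). The pancreatic lines were among the highest, at 139.5 CPM in PancVB, 166 CPM in PancB1Q and 146 CPM in PancB1V. ABCC5 (ENSG00000114770, chromosome 3 from 183637722 to 183735727, minus strand), a relative of ABCC4 that also exports cyclic nucleotides and nucleoside analogues, was highest in U10 at 171 CPM, with 149.9 CPM in UWB1.289 and 143 CPM in U100. It rose in HCC4006ER, where 34.5 and 30.4 CPM stood against 17.6 and 14.1 CPM (edgeR 1.09 ± 0.15, adjusted p = 0.00134). In HepG2S3 it was higher by 0.17 on log2(CPM + 1) but gave -0.14 ± 0.16 with the edgeR scaling (adjusted p = 0.483). The 5-fluorouracil-resistant PancB1Q and PancB1V held 42.5 and 53.3 CPM of ABCC5 against 85.3 CPM in PancVB.

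Counted over the 9 genes, HepG2S3 had 7 calls at an edgeR adjusted p under 0.05, 6 lower (ABCB1, ABCC1, ABCC2, ABCC3, ABCC6, ABCC10) and 1 higher (ABCC4). Of the 16929 genes tested there 63.5% were called, 32.1% lower and 31.4% higher. HepG2S1 had 6 calls, 5 lower (25% of all genes) and 1 higher (22.3%), where 47.3% of the 18341 genes tested were called. HepG2S1 rests on 1 library, which is assumed to vary like the others of the fit, and it shares the HepG2 libraries with HepG2S3. The descendants were not told apart by any of the 9 genes (edgeR, 0 of 9 called, 0.622% of all genes called, 0.0927% higher and 0.529% lower in HepG2S3). At an unadjusted edgeR p under 0.05 there were 2829 of 18341 genes and 1 member, ABCC3. The differences had wide intervals for the rare transcripts, for example -3.13 to 0.03 on the log2 scale for ABCB1. In HCC4006ER, 4 of the 8 genes outside the nearly empty stretch were called, ABCC4 and ABCC5 higher and ABCC1 and ABCC3 lower. There 49% of 12791 genes were called, 24.1% higher and 24.9% lower.

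**Figure D5:**
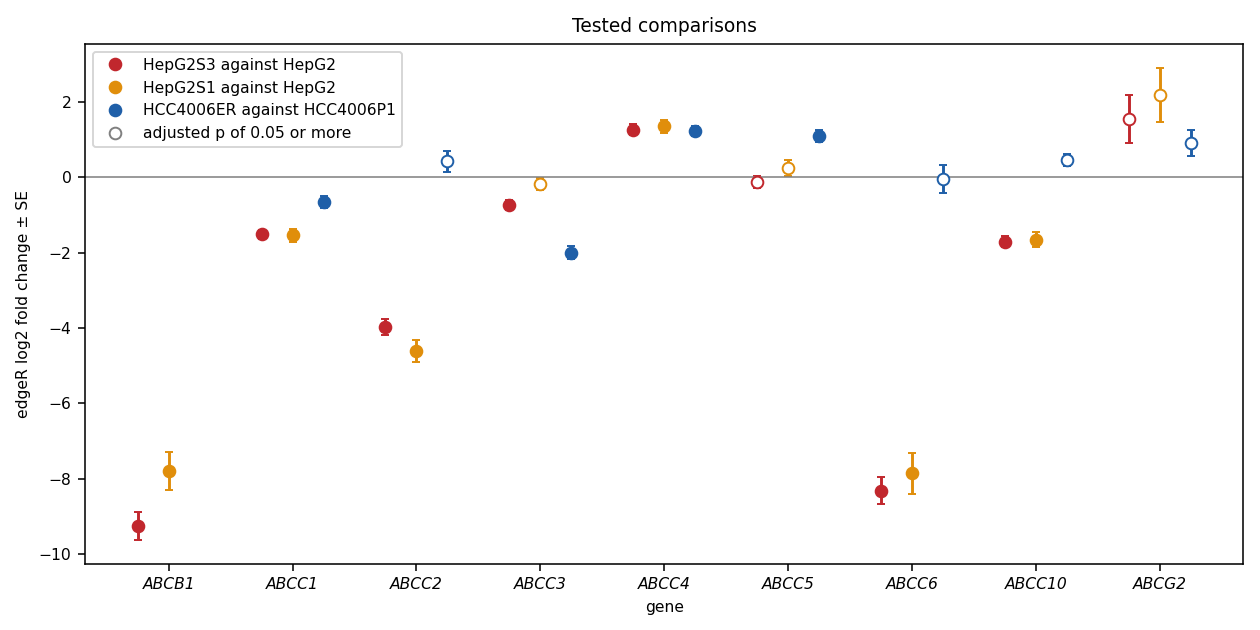
edgeR log2 fold changes of the members in the tested comparisons. Points are fold changes, bars are standard errors, filled points have an adjusted p under 0.05, and ABCB1 has no point for HCC4006ER because it lies in the nearly empty stretch. ABCC4 lies between 1.22 and 1.35 in all 3 comparisons, while ABCB1 and ABCC6 lie below -7 in both HepG2 comparisons.

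The changes in HepG2S3 and HCC4006ER were compared by an interaction term. Of 8 genes, 6 differed at an edgeR adjusted p under 0.05, 1 (ABCC3) with the higher value in HepG2S3 and 5 with the lower. Of the 14478 genes tested 55.9% differed, 28.2% higher and 27.7% lower. ABCC4 did not (0.07 ± 0.21, interval -0.40 to 0.55, adjusted p = 0.805), nor did ABCG2 (0.67 ± 0.79, interval -1.13 to 2.47, adjusted p = 0.511). Over the 7 parental cell lines, with the parent as a block and resistant libraries of 1 parent summed, no member was called by edgeR (0% of 19829 genes called). At an unadjusted p under 0.05 there were 920 genes and 0 members, and DESeq2 called 105 genes and 0 members. The estimates ranged from -0.99 ± 0.59 for ABCC2 (adjusted p = 0.994) to 1.63 ± 1.65 for ABCB1 (adjusted p = 0.998). For ABCB1 the interval of -2.13 to 5.38 leaves both directions within it.

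Markers of liver cells fell in the HepG2 family, in which ABCB1, ABCC1, ABCC2, ABCC6 and ABCC10 fell and ABCC4 rose. All 5 liver markers were lower by edgeR in both descendants, where 32.1% (HepG2S3) and 25% (HepG2S1) of all genes were lower. The summed level of the markers was 16655 CPM in HepG2 and between 0.812 and 17.6 CPM in the descendants. APOA1, HNF4A and TTR were under 1 CPM there. Markers of other cell types moved in both directions in HepG2S3. KRT7 rose from 1.03 to 2912 CPM, MUC1 from 0.0136 to 22.9 CPM and MUC16 from 0.028 to 7.62 CPM. KRT19 fell from 347 to 164 CPM, PAX8 from 4.58 to 0.96 CPM and WT1 from 0.351 to 0 CPM. The part of all these genes in the fall of ABCB1, ABCC2, ABCC6 and ABCC10 was not tested. In HCC827GR, where ABCB1, ABCC6 and ABCC3 were higher, 3 of the 4 lung and 3 of the 4 pancreas markers were at least 2-fold lower. Of the 5 liver markers 1 was at least 2-fold higher. Of all genes 6.86% were lower and 9.03% higher there. In HCC4006GR all 4 lung markers were at least 2-fold lower, and none of these transporters was 2-fold higher. In HCC4006ER the epithelial genes KRT19 (1723 to 2.11 CPM), KRT7 (2077 to 155 CPM) and MUC1 (319 to 23.6 CPM) fell by edgeR along with ABCC1 and ABCC3. The part of these genes in the transporters' changes was not tested either.

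Other genes of drug handling were read from 4 lists, by edgeR calls, against 32.1% of all genes lower and 31.4% higher in HepG2S3 and 24.9% lower and 24.1% higher in HCC4006ER. Among 15 regulators of efflux genes, 9 were lower and 4 higher in HepG2S3 by edgeR, with a list median of -0.90 against -0.01 over all genes. NR1H4 (the bile acid receptor FXR) went from 75.3 to 0.0639 CPM, HNF4A from 218 to 0.431 CPM and NR1I2 (the xenobiotic receptor PXR) from 19.2 to 0.0809 CPM. In HCC4006ER 3 of 11 tested were lower, near the 24.9% of all genes, and 1 higher, with HIF1A at 356 against 1100 CPM (edgeR -1.55 ± 0.17, adjusted p = 6.2e-04), ESR1 at 0.279 against 2.95 CPM and FOXO3 at 92.9 against 139 CPM. Of 15 drug uptake transporters, 11 were tested in HepG2S3, of which 7 were lower and 2 higher (median -0.94). SLCO2B1, an organic anion importer, went from 37.9 to 0.16 CPM, SLC22A7 from 3.75 to 0 CPM and the nucleoside importer SLC28A1 from 0.463 to 0 CPM. In HCC4006ER 4 of 6 tested were lower and 0 higher (median -1.14 against 0.01 over all genes), among them SLC22A3, an organic cation importer (16.1 to 1.35 CPM), SLCO1B3 (3.73 to 0.255 CPM) and SLCO4A1 (26.1 to 10.7 CPM).

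Glutathione and conjugation enzymes supply several ABCC proteins with substrates. In HepG2S3, 7 of 18 were lower and 5 higher (median 0.08), near the shares of all genes (32.1% and 31.4%). GSTP1, a glutathione transferase, rose from 0.169 to 377 CPM, while UGT2B7 (51.4 to 0.0326 CPM) and SULT2A1 (161 to 0.289 CPM), which make glucuronides and sulfates, fell. In HCC4006ER, in which ABCC1 and ABCC3 fell, 5 of 13 tested were lower and 1 higher. GCLC and GCLM, the subunits of the enzyme that limits glutathione synthesis, went from 112 to 29.9 CPM and from 86.9 to 28.9 CPM, and MGST1 from 158 to 59.4 CPM. Of the 39 other ABC genes, 31 were tested in HepG2S3, with 9 lower and 8 higher (median -0.13), again near 32.1% and 31.4%. The cholesterol exporter ABCA1 (186 to 0.321 CPM), ABCB4 and ABCG5 (20.5 to 0.0469 CPM) had the largest falls. In HCC4006ER 4 of 18 were lower and 3 higher, with ABCA5 at 15.4 against 1.69 CPM, ABCA12 at 0.358 against 5.93 CPM and the peptide transporter TAP2 at 18 against 51.4 CPM.

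The members did not vary as 1 group over the 17 lines. Lines of 1 parent share its origin, so these correlations describe the lines and carry no test. ABCC1 and ABCC4 ran most strongly against each other (Pearson r = -0.77, Spearman rho = -0.73, n = 17 lines, log2(CPM + 1)). The strongest positive values were those of ABCC6 with ABCC10 (r = 0.68, rho = 0.15), with ABCC2 (r = 0.66, rho = 0.12) and with ABCB1 (r = 0.64, rho = 0.50). HepG2 was the highest line for ABCC2, ABCC6 and ABCC10 alike. Among 14618 genes compared, those most like each member by Pearson r were UGT2B7 (0.94) and SLC26A10P (0.93) for ABCB1, BICDL1 (0.85) and IDH2 (0.84) for ABCC1, NBEAP3 (0.91) and FGB (0.88) for ABCC2, and SLC16A3 and LGALS3 (both 0.93) for ABCC3. They were DNM1L (0.88) and FKBP4 (0.87) for ABCC4, ZNF169 and RNF170 (both 0.91) for ABCC5, SLCO4C1 (0.95) and GJB1 (0.94) for ABCC6, GCKR (0.90) and DIO1 (0.87) for ABCC10, and OPN3 (0.89) and TSC22D3 (0.88) for ABCG2. By rank the likeness was weaker for UGT2B7 (Spearman rho = 0.43), GJB1 (0.53), GCKR (0.52) and DIO1 (0.51), each of them highest in HepG2, and 0.79 or more for the others.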

How the data were processed

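Poly(A) RNA of 17 cell lines was sequenced in 21 libraries. The authors deposited unnormalized read counts per Ensembl gene. Their methods and processing notes name Bowtie and TopHat (STAR for 3′ kit libraries), SAMtools, HTSeq and build hg19. Strand setting and versions are not given in the sources used here. Reads outside genes (28% to 42.8% of a library) were left out. Symbols came from a GENCODE annotation of GRCh37 that matched 45100 identifiers (84.3%).

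CPM were computed from the total on genes and averaged over replicate libraries. Intervals are 95% (Wilson for levels, exact for ratios, t-based for edgeR changes). The first 2 hold counting error alone, because reads copied by PCR are no separate molecules. Folds against 0 counts use 3 counts. Counts were tested two-sided with the quasi-likelihood test of edgeR 4.0.16 (TMM, filterByExpr, Benjamini-Hochberg over all genes), and with DESeq2 1.42.0 as an alternative. The HCC4006 fit left out the genes past the point where HCC4006P1 replicate 1 has almost no counts. HepG2S1 was tested in 1 fit with HepG2 and HepG2S3. Other alternatives were a pseudocount of 0.1 CPM, other scalings, no filter, the replicate block and each library left out. On simulated counts of the HepG2S3 design with 200 of 29587 genes changed 4-fold, edgeR recovered 199 with 4.33% false calls. In the data 63.5% of the genes tested were called, so this rate does not carry over to them.

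Replicates are numbered by the letter that ends their cell line name. The titles number both HepG2 libraries alike, and both HepG2S3 libraries, so their independence is unsure. The members and gene lists were chosen with earlier results of these data known. Named are the 9 members, up to 3 genes of each list with the largest change in each replicated test, the nearest protein-coding neighbours and the 2 genes most correlated with each member. R 4.3.3 and Python 3.11.15 were used.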

Additional observations from a re-analysis of the deposited data

Results flagged for a closer look

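Among the 18 sets of values checked for a value far from the rest (the 7 parental lines and the 10 pairs for each of the 9 genes), 1 stood out, where chance gives about 1 in 20. ABCC6 in HepG2 was at 6.24 on log2(CPM + 1), and the other 6 parental lines lay between 0.23 and 2.20.

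The change in HepG2S3 and that in HCC4006ER differed for 6 genes by the edgeR interaction term. The difference (HepG2S3 minus HCC4006ER, log2) was -8.24 for ABCC6 (adjusted p = 3.5e-06), -4.36 for ABCC2 (5.1e-06), -2.13 for ABCC10 (5.4e-05) and -1.20 for ABCC5 (0.002). It was -0.81 for ABCC1 (0.012), which fell in both, and 1.30 for ABCC3 (0.0014), which also fell in both but more in HCC4006ER. Without HepG2S3 replicate 2 or HCC4006ER replicate 2 the ABCC1 difference had an adjusted p of 0.0535 and 0.054.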

How the results depend on the processing

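Each count of members called stayed within 1.5 times its value under every alternative run. Leaving out 1 library gave between 6 and 9 in HepG2S3, 6 and 8 in HepG2S1, 3 and 6 in HCC4006ER and 5 and 7 for the difference between HepG2S3 and HCC4006ER, and leaving out 1 parent gave 0 over the 7 parental lines. With a pseudocount of 0.1 CPM, 15 combinations were 2-fold higher and 27 lower, against 10 and 21, and under the other settings 10 or 11 were higher and 21 lower. Over all genes, 6266 were called in HCC4006ER, 3417 with the nearly empty stretch included, 4051 without HCC4006ER replicate 1 and 10281 on all genes without HCC4006P1 replicate 1, a fit chosen after seeing the data. Over the 7 parental lines edgeR called 0 genes and DESeq2 105. On simulated counts of that design, with 200 of 37690 genes changed 4-fold, 28.0% of the DESeq2 calls and 3.42% of the edgeR calls were false. These rates hold for that setting only.

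Changes of sign concerned members without a call. ABCC6 in HCC4006ER (-0.05) ranged from -0.37 to 0.40 with 1 library left out, was 0.40 without HCC4006P1 replicate 1 and 0.19 without HCC4006ER replicate 1, and on all genes without HCC4006P1 replicate 1 was 0.36 (edgeR) and 0.34 (DESeq2). In the difference between the pairs, ABCG2 ranged from -0.04 (without HepG2 replicate 2) to 2.07 (without HepG2 replicate 1), and ABCC4 from -0.08 (without HCC4006P1 replicate 2) to 0.22, with -0.01 without HepG2S3 replicate 2. Over the 7 parental lines, ABCC5 was -0.02 with both HCC4006 parents as 1 block and ranged from -0.08 (without HCC4006P1) to 0.22 with 1 parent left out. ABCC6 ranged from -1.13 to 0.34 (without HepG2), with 0.01 without PancVB and 0.08 without HCC4006P2, and ABCC10 from -0.24 to 0.09 (without HepG2). The cause was not tested.

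The replicate numbers were checked as a pairing. Deviations of same-numbered libraries correlated at 0.0291 in the HepG2 and 0.406 in the HCC4006 pair, and no source says that they share a culture. With the replicate block, 8 members were called in HepG2S3 (ABCG2 added, 1.84, edgeR adjusted p = 0.0158), 6 in HCC4006ER (ABCG2, adjusted p = 6.94e-05, and ABCC10, adjusted p = 0.0106, added) and 6 for the difference.

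ABCG2 was the member whose call in the HepG2 pairs changed most often. Its edgeR change in HepG2S3 was 2.96 without HepG2 replicate 1 and 0.83 without replicate 2, and in HepG2S1 3.61 and 1.49. These fits kept 1 HepG2 library and lost the spread between the parental libraries, so they do not decide the call. In HCC4006ER the adjusted p of ABCG2 was 0.0499 with DESeq2, and 0.0174 with edgeR on unfiltered genes. ABCC1 lost its call in HCC4006ER also with the stretch included (-0.69, edgeR adjusted p = 0.0964). Depth limits ABCB1, ABCC6 and ABCG2 where a library held only a few counts of them.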
